A study of Mus musculus with 6 samples.

Results

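The BCL2 family decides whether a cell keeps its mitochondria intact or dies. Here 10 of its genes were followed in cultures of macrophages and myeloma cells given an antibody against the growth factor receptor CSF1R. The genes were Bcl2, Bcl2l1, Mcl1, Bcl2l11, Bmf, Bbc3, Pmaip1, Bid, Bak1 and Bax. They were chosen by name, with earlier results of these data known. Each gene was read from the probe set annotated to that symbol alone with the highest mean over the 6 arrays. Of the 10 genes, 9 had such a probe set, out of 22180 genes with a value, and Bax was not analysed here. Bone marrow cells from 3 C57BL/KaLwRij mice were grown for 7 days with M-CSF, the CSF1R ligand that turns marrow cells into macrophages, and then shared a culture overnight with 5TGM1-luc cells, a mouse myeloma line that carries luciferase. For the next 3 days these cultures had either the anti-mouse CSF1R antibody at 0.5 nM (3 arrays, CS7 in the sample titles) or a control IgG whose dose is not stated separately (3 arrays). All cultures of both groups were thus in contact with myeloma cells, and all were washed 4 times before RNA was taken for GeneChip Mouse Gene 2.0 ST arrays. The labels tie no array to a mouse, so the spread behind each p-value is that between these samples and may be partly technical. No culture without myeloma cells is among the samples used here, and the number of arrays limits the precision of every value.

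As background, the family falls into guardians, triggers and executioners. The guardians BCL2, BCL-XL (encoded by Bcl2l1) and MCL1 hold the executioners BAX and BAK in check on the outer mitochondrial membrane. The triggers are the BH3-only proteins, among them BIM (Bcl2l11), BMF, PUMA (Bbc3), NOXA (Pmaip1) and BID, which occupy the groove of the guardians and in part activate BAX and BAK directly. Open pores of BAX or BAK release cytochrome c, which starts the caspase cascade. Macrophages and their precursors depend on signals from CSF1R for survival, and withdrawal of a growth factor is a textbook setting for the rise of BIM, through FOXO transcription factors that are no longer held out of the nucleus by AKT.

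The regions just upstream of 4 of these genes are shown because they are the stretches where such transcription factors would be looked for. The first is that of Bcl2l11, the member with the largest change. Next comes that of Bbc3, the other gene with a FOXO match among the members searched, which leave out Pmaip1. The last pair is that of Bcl2, which moved the opposite way, and that of Bmf, which moved with Bcl2l11. Each run is the 250 bases before a RefSeq transcription start on GRCm38.p6, 5′ to 3′ on the gene's own strand, and capitals mark matches, on either strand, to 3 short motifs. They are the FOXO letters (TGTTTAC), the GC box bound by SP1 (GGGCGG), and the CCAAT box, which NF-Y binds and whose name spells its letters. The Bcl2l11 run lies at chr2:128125788-128126037 (+ strand), the Bbc3 run at chr7:16310011-16310260 (+ strand), the Bcl2 run at chr1:106714291-106714540 (− strand) and the Bmf run at chr2:118549687-118549936 (− strand). For Bbc3 the start with the FOXO match is shown, and for the other genes the outermost start.
Bcl2l11: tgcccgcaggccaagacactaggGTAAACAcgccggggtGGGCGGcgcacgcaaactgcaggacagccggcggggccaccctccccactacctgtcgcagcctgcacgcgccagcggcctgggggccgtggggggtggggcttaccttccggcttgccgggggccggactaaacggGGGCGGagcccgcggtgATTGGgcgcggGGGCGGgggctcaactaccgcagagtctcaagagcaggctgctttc
Bbc3: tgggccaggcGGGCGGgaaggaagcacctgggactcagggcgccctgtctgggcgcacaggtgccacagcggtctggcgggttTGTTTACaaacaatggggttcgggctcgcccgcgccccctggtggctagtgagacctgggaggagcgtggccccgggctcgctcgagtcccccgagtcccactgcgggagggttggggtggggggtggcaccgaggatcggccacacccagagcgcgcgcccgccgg
Bcl2: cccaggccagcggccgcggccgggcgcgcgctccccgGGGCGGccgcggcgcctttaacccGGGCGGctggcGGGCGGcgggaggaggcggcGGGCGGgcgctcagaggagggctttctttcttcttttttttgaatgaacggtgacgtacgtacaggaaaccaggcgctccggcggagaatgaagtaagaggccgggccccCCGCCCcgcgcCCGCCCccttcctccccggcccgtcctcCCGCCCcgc
Bmf: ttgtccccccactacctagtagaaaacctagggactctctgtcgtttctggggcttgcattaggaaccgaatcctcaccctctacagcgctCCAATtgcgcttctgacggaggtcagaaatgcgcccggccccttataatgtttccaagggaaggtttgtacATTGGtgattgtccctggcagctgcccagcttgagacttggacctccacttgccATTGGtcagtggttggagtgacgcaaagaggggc

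The FOXO letters lay 227 to 221 bases before the start of Bcl2l11, as GTAAACA on the strand shown, and 167 to 161 bases before this start of Bbc3. Those letters were held by 3.17% of all 32851 upstream windows that RefSeq gives. Pmaip1 was left out of the search of member windows, and among the 15 windows of the other 8 measured members, 2 held the FOXO letters. The Bcl2 window was 74.8% G or C and held 7 GC boxes, a motif present in 32.7% of all windows, and no CCAAT box. The Bmf window was 54.0% G or C, with no GC box and 3 CCAAT boxes, a motif present in 33.8% of all windows. The same windows were searched on both strands for 11 other motifs. The NF-kB motif was in 17.6% of all windows, among them those of Bak1 and Bbc3, and the PU.1 letters GAGGAAGT in 2.44%, among them that of Bak1. The E-box, CACGTG, was in 6.02%, among them a window of Bbc3. Of all windows 6.47% held TGACGT, the core of the cAMP response element, and that of Bcl2 was one of them. None of the 15 member windows held the ETS letters CCGGAAGT, the full cAMP response element TGACGTCA (which contains its core), the AP-1 letters TGANTCA, the TATA box TATAAA, the E2F letters TTTGGCGC, the IRF motif or the CArG box. A match describes letters only, and a link between the matches and the changes in expression was not tested.

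Of the 9 measured members, 2 were higher with the CSF1R antibody (Bcl2l11 and Bmf), 2 were lower (Bcl2 and Bcl2l1) and 5 did not pass the test. The share of members called was 44.4%, where the same test (limma with Benjamini-Hochberg adjustment over all genes, threshold 0.05) called 28.5% of all 22180 genes, 12.5% as higher and 16.0% as lower. Above a guide to background signal of 4.92 on the log2 scale, the 95th percentile of the means of 1390 olfactory and vomeronasal receptor genes, 46.1% of 13110 genes were called (20.1% as higher, 26.0% as lower), and all 9 measured members lay above it. The family as a whole was therefore called at about the background share of genes with signal. The median change of the 9 members was 0.02, beside −0.02 for all genes. At least 2-fold rises that passed the test made up 2.89% of all genes and 4.87% of those above the guide, and Bcl2l11, with the 627th highest change of the 22180 genes, was among them. In 7 members the 2 groups of arrays did not overlap, and this was so for 39.3% of all genes and 59.9% of those above the guide. The cultures held RNA of more than 1 cell type, with a median change of 1.18 for macrophage markers and −0.33 for plasma cell markers, and in such bulk samples fewer cells of a type and less RNA per cell cannot be told apart.

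**Figure D1:**
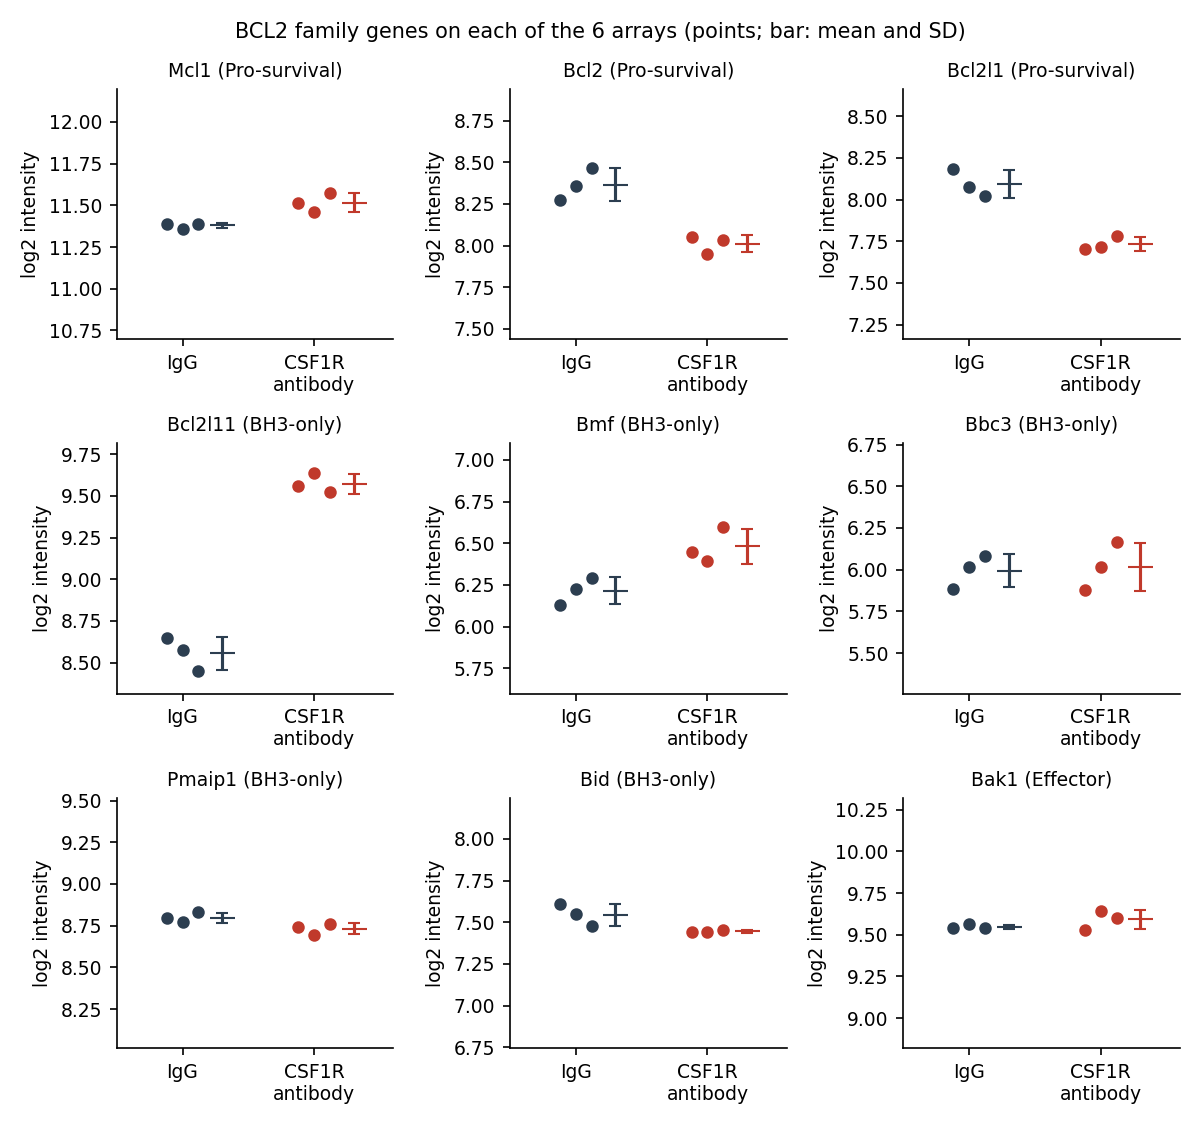
Log2 intensity (vertical axis, each panel spanning the same range) of 9 BCL2 family genes on the 3 IgG and 3 CSF1R antibody arrays, points for arrays and bars for mean and SD. Bcl2l11 lies between 9.52 and 9.64 with the antibody and between 8.45 and 8.65 with IgG, while Bcl2 and Bcl2l1 lie lower with the antibody and Bbc3 overlaps.

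Among the guardians, Bcl2 gave 8.05, 7.95 and 8.03 (log2 intensity) on the antibody arrays and 8.27, 8.36 and 8.47 on the IgG arrays. Every antibody value was below every IgG value, with 0.22 between the nearest arrays. Bcl2, the founding survival gene of the family, thus fell by 0.35 (log2, SE 0.06, 1.28-fold, limma adjusted p = 0.0069), from 8.37 ± 0.10 to 8.01 ± 0.05 (SD, n = 3). A second probe set annotated to Bcl2 lay at 3.84 ± 0.02 and 3.88 ± 0.09 (SD, n = 3), below the guide, so it says little of Bcl2 in either group. With the mean of both probe sets the fall of Bcl2 was 0.20 (adjusted p = 0.028).

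Bcl2l1, which encodes BCL-XL, gave 7.70, 7.72 and 7.78 with the antibody and 8.18, 8.08 and 8.02 with IgG. Again no antibody array reached the lowest IgG array, and the gap was 0.24. Its fall of 0.36 (SE 0.06, 1.28-fold, limma adjusted p = 0.0043) was close to that of Bcl2. Both falls passed the test under all 19 alternative settings.

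Mcl1, the short-lived guardian on which many myeloid cells and plasma cells depend, gave 11.51, 11.46 and 11.57 with the antibody and 11.39, 11.36 and 11.39 with IgG. The antibody values all lay above the IgG values, by 0.07 at the nearest, but the difference of 0.14 (SE 0.05, 95% interval 0.02 to 0.26) did not pass (limma adjusted p = 0.092). It passed with an intensity trend (adjusted p = 0.018), with cyclic loess scaling (0.25, adjusted p = 0.0085), with its 2 probe sets averaged (0.20, adjusted p = 0.040), and when dim genes were left out of the test at the median signal (adjusted p = 0.029) or at the receptor guide (adjusted p = 0.039). Its second probe set pointed the same way, at 7.20 ± 0.04 with the antibody and 6.94 ± 0.13 with IgG (SD, n = 3), a difference of 0.26 (adjusted p = 0.078 over all probe sets). Of the guardians among the members, then, Bcl2 and Bcl2l1 were lower, and Mcl1 was not called, with an interval that lay above 0. The survival gene Bcl2a1a, a relative that is not a member, rose by 0.55 (limma adjusted p = 0.0066).

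Bcl2l11, the gene of the trigger protein BIM, changed most of the 9 members. It gave 9.56, 9.64 and 9.52 on the antibody arrays and 8.65, 8.58 and 8.45 on the IgG arrays. The groups were 0.88 apart at their nearest arrays, far more than the SD within them of 0.06 and 0.10. The rise was 1.01 (SE 0.07, 2.02-fold, 95% interval 0.85 to 1.17, limma adjusted p = 8.5e-05), from 8.56 to 9.57. Over the 19 alternative settings it ran from 0.96 to 1.13 and always passed, with adjusted p from 6.7e-06 to 0.0012. The arrays do not separate the splice forms of BIM, and they measure RNA, while BIM is also controlled by phosphorylation and breakdown of the protein.

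Bmf, whose protein is tethered to the cytoskeleton by a dynein light chain until it is released, gave 6.45, 6.40 and 6.60 with the antibody and 6.13, 6.22 and 6.29 with IgG. The groups did not overlap, with 0.10 between them, and the rise was 0.27 (SE 0.07, 1.20-fold, limma adjusted p = 0.035). This call was less firm than the other 3. It was lost without antibody replicate 1 (adjusted p = 0.076), antibody replicate 3 (0.075), IgG replicate 1 (0.11) or IgG replicate 2 (0.091), and when all 41345 probe sets were tested (0.074). The direction was the same in each of those settings.

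The other triggers showed no called change. Bbc3, which encodes PUMA, a trigger made after DNA damage and growth factor loss, gave 5.87, 6.02 and 6.16 with the antibody and 5.89, 6.02 and 6.08 with IgG. The groups overlapped along nearly their whole range, and the difference was 0.02 (SE 0.09, 95% interval −0.19 to 0.24, limma adjusted p = 0.89). The sign of this difference turned without antibody replicate 3 (−0.05) or IgG replicate 1 (−0.03), and with array weights (−0.0055). Bbc3 also had the highest SE of the members, 0.09, so a change of the size seen for Bmf lies just outside its interval.

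Pmaip1, the gene of NOXA, which binds mainly MCL1, gave 8.74, 8.70 and 8.76 with the antibody against 8.79, 8.77 and 8.83 with IgG. The antibody values were lower by 0.01 at the nearest arrays, and the difference of −0.07 (SE 0.05, 95% interval −0.18 to 0.04) did not pass (limma adjusted p = 0.37). With cyclic loess scaling the sign turned, to 0.05. Bid, whose product carries the signal of death receptors to the mitochondria once caspase-8 has cut it, gave 7.44, 7.44 and 7.45 with the antibody and 7.61, 7.55 and 7.48 with IgG. The spread of Bid was on the IgG side, its groups were 0.02 apart, and the difference of −0.10 (SE 0.05, 95% interval −0.22 to 0.02) did not pass (limma adjusted p = 0.22).

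Bak1, the one executioner among the measured members, gave 9.53, 9.64 and 9.60 with the antibody and 9.54, 9.56 and 9.54 with IgG. The lowest of these Bak1 values was an antibody array, so the groups overlapped. The difference of 0.04 (SE 0.05, 95% interval −0.07 to 0.16, limma adjusted p = 0.60) leaves room for a small change in either direction but not for one of the size of Bcl2l11, Bcl2 or Bcl2l1.

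**Figure D2:**
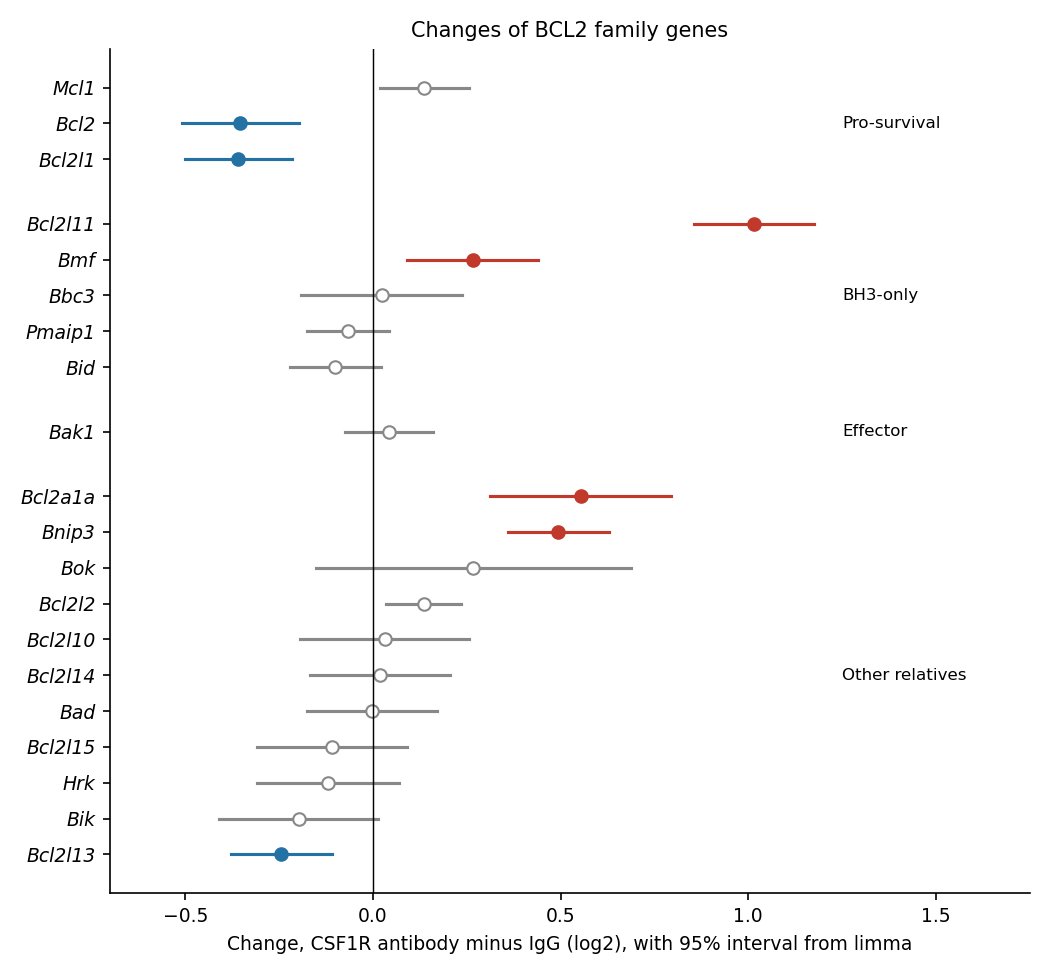
Change on the log2 scale (horizontal axis, antibody minus IgG) of 9 members by role and of 11 other BCL2 relatives, points for limma's estimate and lines for its 95% interval, filled where the adjusted p was under 0.05. Bcl2l11 stands alone at 1.01, while Bcl2 and Bcl2l1 lie at −0.35 and −0.36.

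Within arrays, the changes of the called triggers, Bcl2l11 and Bmf, were set against those of the guardians among the members. Bcl2l11 rose relative to Bcl2 by 1.31, 1.49 and 1.30 (log2) on the 3 antibody arrays, each taken against the IgG mean, so that the difference between the 2 changes was 1.37. Relative to Bcl2l1 the same quantity was 1.39, 1.45 and 1.27, with a mean of 1.37. Relative to Mcl1, which did not pass the test itself, it was smaller, at 0.87, 1.00 and 0.77, with a mean of 0.88. Bmf drew away from Bcl2 by 0.62 and from Bcl2l1 by 0.62. The pattern did not follow the roles throughout. The guardian Mcl1 also drew away from the guardian Bcl2, by 0.45, 0.49 and 0.53, with a mean of 0.49, and the changes of the triggers Bbc3 (0.02), Pmaip1 (−0.07) and Bid (−0.10) lay below that of Mcl1 (0.14). These differences are between changes, not levels, because signals of different probe sets cannot be compared, and as the genes were chosen with results known they carry no test. In the IgG group, log2 values of Bcl2l11 and Bcl2l1 kept nearly the same distance on all 3 arrays (SD 0.03), whereas Bcl2l11 and Bcl2 did not (SD 0.20). The IgG array with the lowest Bcl2l11, replicate 3, had the highest Bcl2.

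The genes whose 6 values, centred on the gene's mean, lay nearest to those of Bcl2l11 were Galnt10 (a root mean square distance of 0.02 on the log2 scale), Vwf (0.04) and S1pr2 (0.04), out of 5953 called genes searched, a number that leaves out predicted genes and small RNAs. Nearest to Bcl2l1 were Tjp3, Timmdc1 and Tmem107, at distances of 0.02, 0.02 and 0.03. With 6 arrays in 2 groups, such likeness mostly records a similar size of change.

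Of 15 other relatives of the family, 11 were measured, of which 2 rose, 1 fell and 8 did not pass, with a median change of 0.02. Bcl2a1a, a member of the A1 group of NF-kB-driven survival genes in leukocytes, rose from 5.96 ± 0.19 to 6.51 ± 0.08 (SD, n = 3), by 0.55 (SE 0.10, limma adjusted p = 0.0066). Its near-identical copies share sequence with it, so the signal may come from more than 1 of them. Bnip3, a hypoxia-induced mitochondrial protein gene with a BH3-like stretch, rose by 0.49 (SE 0.06, adjusted p = 0.00088). Bcl2l13, which encodes a mitophagy receptor, fell by 0.24 (SE 0.06, adjusted p = 0.018). That call of Bcl2l13 was lost with cyclic loess scaling (−0.13, adjusted p = 0.17), with arrays centred on their medians (−0.20, adjusted p = 0.052) and without antibody replicate 1 (adjusted p = 0.062), IgG replicate 2 (0.059) or IgG replicate 3 (0.052).

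Downstream of BAX and BAK, 16 of 18 listed genes were measured, and 5 rose, 3 fell and 8 did not pass, with a median change of −0.01. Apaf1, the scaffold of the apoptosome on which caspase-9 is activated, rose from 7.88 ± 0.03 to 8.69 ± 0.09 (SD, n = 3), by 0.81 (SE 0.06, limma adjusted p = 0.00013). Casp6, an executioner caspase gene, rose by 0.36 (SE 0.06, adjusted p = 0.0042), and Birc3, which encodes the inhibitor cIAP2, rose by 0.44 (SE 0.05, adjusted p = 0.00086). Cycs, the gene of cytochrome c, fell by 0.36 (SE 0.05, adjusted p = 0.0018); it has 5 probe sets here and many processed copies in the genome, so its signal is uncertain. The count of 8 called genes was 5 without antibody replicate 1, without antibody replicate 2 or without IgG replicate 3, with 4 higher and 1 lower each time, and 5 with every probe set tested (3 higher, 2 lower). With arrays centred on their medians and with cyclic loess scaling, 5 rose and 1 fell, so that Cycs was the one fall left under these scalings.

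Regulators of the triggers were also measured. The list for PI3K-AKT-FOXO and ERK signalling downstream of CSF1R had 15 of 20 genes measured. Of these, 4 were higher, 2 were lower and 9 were not called, with a median change of 0.06. The list pools genes with different roles, so this median gives no direction for the signal. Pik3r5, a regulatory subunit of PI3K-gamma, rose by 1.41 (SE 0.05, limma adjusted p = 1.2e-05), while Pik3cg, the catalytic subunit of the same enzyme, fell by 0.41 (SE 0.05, adjusted p = 0.0010). Pik3cd, the leukocyte PI3K-delta catalytic subunit, rose by 1.20 (SE 0.07, adjusted p = 5.9e-05). The transcription factor gene Foxo1 fell by 0.38 (SE 0.05, adjusted p = 0.0013), and Foxo3, picked out after its value was seen, rose by 0.33 (SE 0.07, adjusted p = 0.011). Activity of FOXO proteins is set mainly by phosphorylation and location, which arrays do not measure.

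The p53 pathway list, which includes the members Bbc3 and Pmaip1, had 22 of 25 genes measured, with 5 higher, 7 lower and 10 not called, and a median change of −0.07. Plk2, a p53-responsive kinase gene, rose by 1.16 (SE 0.05, limma adjusted p = 1.3e-05), the death receptor gene Fas by 0.85 (SE 0.08, adjusted p = 0.00046), Ccng1 (cyclin G1) by 0.55 (SE 0.07, adjusted p = 0.0017) and Sesn1 (sestrin 1) by 0.54 (SE 0.06, adjusted p = 0.00062). A further 4 genes were picked out after their values were seen. Cdkn1a, the gene of the cell cycle inhibitor p21, rose by 0.44 (SE 0.06, adjusted p = 0.0017). Gtse1, a cell cycle gene whose product restrains p53, fell by 0.52 (adjusted p = 0.00065), Aen, which encodes an apoptosis-enhancing nuclease, by 0.40 (adjusted p = 0.00066) and Mdm4, which encodes an inhibitor of p53, by 0.39 (adjusted p = 0.0059). The list moved in both directions, and its 2 trigger genes were not called.

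Of 11 listed genes that act on the MCL1, BIM or BMF proteins, 10 were measured, and 4 fell, 1 rose and 5 did not pass, with a median change of −0.14. Huwe1 and Fbxw7, which encode ubiquitin ligase components that mark MCL1 for breakdown, fell by 0.46 (SE 0.06, limma adjusted p = 0.0012) and 0.45 (SE 0.04, adjusted p = 0.00043). Trim17, picked out after its value was seen and the gene of another ligase for MCL1, rose by 0.29 (SE 0.05, adjusted p = 0.0042). Btrc and Marchf5, also ligase genes, and Usp9x, whose product removes ubiquitin from MCL1, were not called, at −0.07, −0.07 and −0.04, and with cyclic loess these 3 differences lay above 0. Dynll2, the dynein light chain that anchors BMF, fell by 0.33 (SE 0.09, adjusted p = 0.032). That call of Dynll2 was lost without antibody replicate 1 (adjusted p = 0.061) or IgG replicate 1 (0.11), 2 (0.057) or 3 (0.095), with cyclic loess scaling (0.11) and with every probe set tested (0.067). Xrcc6, the gene of the DNA repair protein Ku70, fell by 0.46 (SE 0.05, adjusted p = 0.00083).

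**Figure D3:**
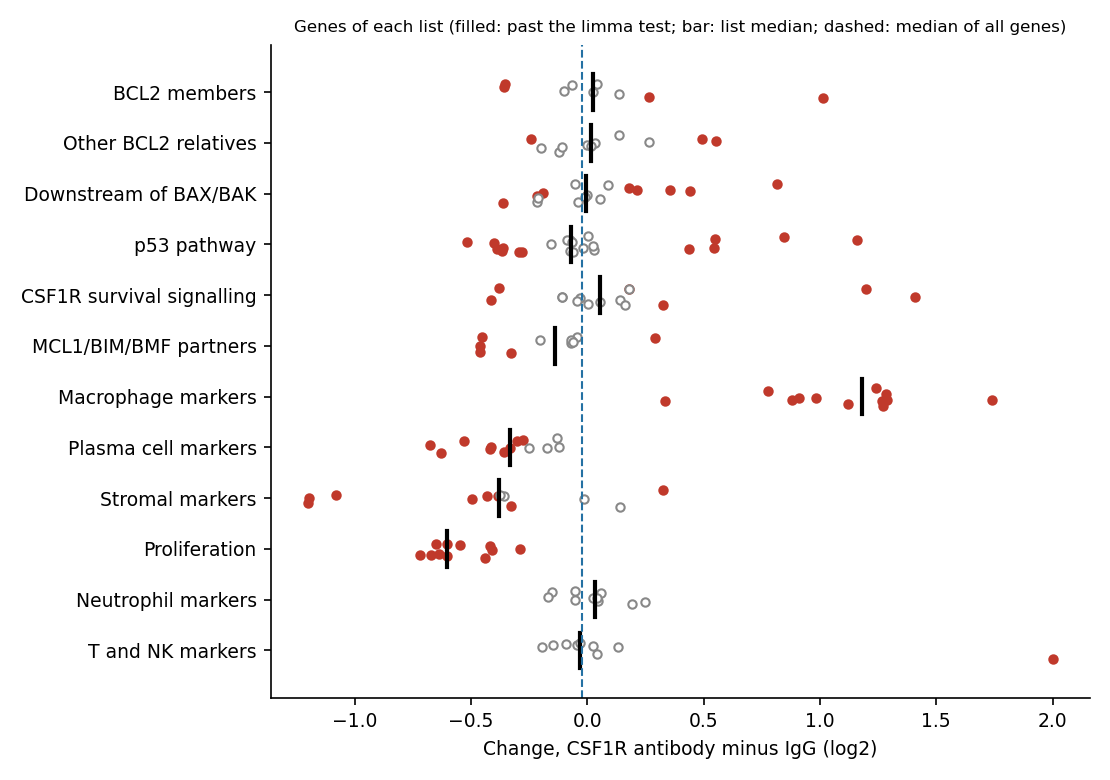
Change on the log2 scale (horizontal axis, antibody minus IgG) of each measured gene, by list; filled points passed the limma test, black bars are list medians and the dashed line is the median of all genes, −0.02. Members scatter around that line with Bcl2l11 far to the right, macrophage markers sit at a median of 1.18, and the medians of plasma cell, stromal and proliferation genes lie at −0.33, −0.38 and −0.60.

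The RNA came from a mixture, which bears on every value above. All 12 macrophage markers were above the background guide and higher with the antibody, with a median change of 1.18, and their mean log2 level over the list was 10.60 to 10.63 on the antibody arrays and 9.50 to 9.53 on the IgG arrays. Csf1r, the antibody's target and itself a macrophage marker, rose by 1.12 (SE 0.05, limma adjusted p = 2.0e-05). That transcript does not check the labels, since the antibody binds the protein. Of 13 plasma cell and myeloma markers, 12 lay above the guide, 9 fell and 0 rose (0 also at an unadjusted p under 0.05), with a median change of −0.33 and mean levels of 8.75 to 8.80 with the antibody and 9.11 to 9.15 with IgG. Pou2af1, a B lineage coactivator gene, for example, stood at 11.00 ± 0.02 against 11.63 ± 0.03 (SD, n = 3).

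Stromal markers fell in 7 of 12 cases and rose in 1, a marker that lay below the guide in both groups. Their median change was −0.38, with mean levels of 5.88 to 5.95 against 6.36 to 6.39. Of 11 proliferation genes measured, all 11 fell, with a median of −0.60. Of 10 neutrophil markers limma called 0 (also 0 at an unadjusted p under 0.05), and 8 of them lay below the guide in both groups. Of 9 T and NK cell markers 7 lay below it, and 1 was called, Cd4 (8.24 ± 0.04 against 6.24 ± 0.19, SD, n = 3). Thus the rise of Bcl2l11 by 1.01 stands beside a median rise of 1.18 for macrophage markers, and the falls of Bcl2 and Bcl2l1 by 0.35 and 0.36 beside a median of −0.33 for plasma cell markers. The part of these markers in the members' changes was not tested.

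**Figure D4:**
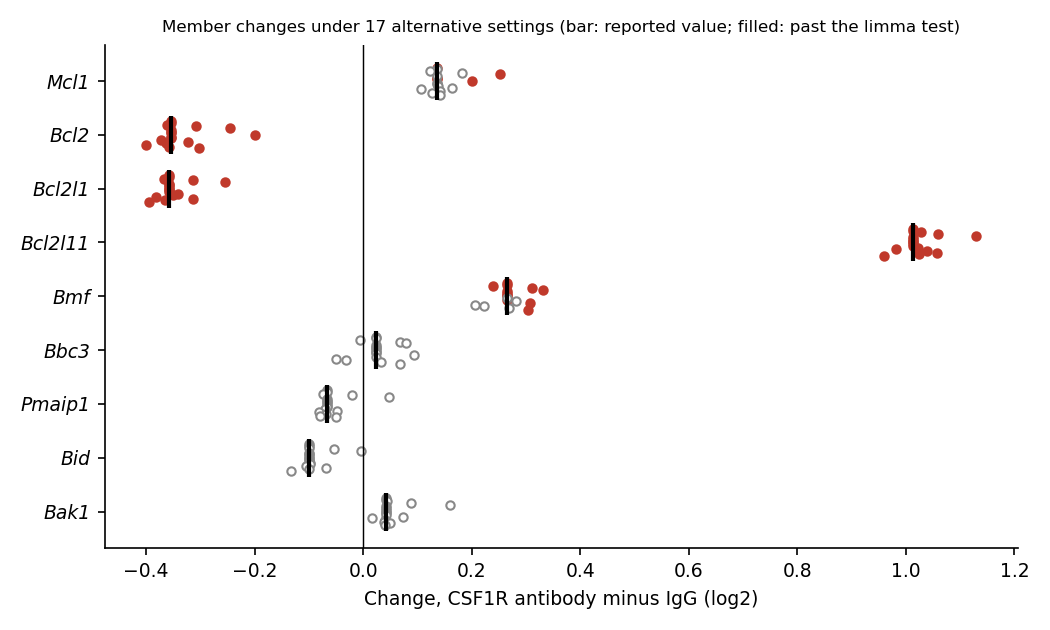
Change of each member on the log2 scale (horizontal axis, antibody minus IgG) under 17 alternative settings of the fit, the scaling, the genes tested or the arrays left out; bars mark the reported values and filled points have adjusted p under 0.05. Bcl2l11, Bcl2 and Bcl2l1 stay called in all 17, Bmf and Mcl1 have points of both kinds, and Bbc3 and Pmaip1 have points on both sides of 0.

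The alternative settings divided the members into 3 kinds. Bcl2l11, Bcl2 and Bcl2l1 were called in each of the 17 settings that kept the threshold, with changes from 0.96 to 1.13, from −0.40 to −0.20 and from −0.40 to −0.25. Bmf and Mcl1 kept their signs but crossed the threshold in some. Bak1, Bid, Bbc3 and Pmaip1 were called in none of them; for Bak1 the smallest adjusted p was 0.051, with cyclic loess scaling, at a change of 0.16. Under cyclic loess 59.2% of all called genes were higher, in place of 43.8%, and Bcl2 and Bcl2l1 were still lower, at −0.25 and −0.25.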

How the data were processed

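The 6 arrays (3 with the CSF1R antibody, 3 with IgG) were deposited as intensity values per probe set, not on a log scale. The submitters' processing notes name RMA and limma, without version or role. RMA usually makes arrays alike in distribution, which would hide a shift shared by most genes and compresses fold changes. No genome build or summary level is given in the sources used here. Log2 medians lay between 4.88 and 4.95, and correlations were 0.992 to 0.993 within groups and 0.984 to 0.985 between them.

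Values were taken as log2. Gene symbols are those of the platform's annotation and may be outdated. Of 41345 probe sets, 23521 carried a single symbol (99.2% of these matched a RefSeq gene, and 0 symbols changed), 1814 carried several and 16010 carried no symbol. The probe set with the highest mean stood for each of 22180 genes, with no filter on low signal. The test was limma (version 3.58.1, R 4.3.3; lmFit, eBayes, 4 residual degrees of freedom) with Benjamini-Hochberg adjustment over all genes at 0.05. Its code was also run on simulated data with independent noise and few changed genes, which cannot show how the test behaves on these arrays. Levels are means ± SD. Some genes had identical values on several arrays, among them Bid on some antibody arrays, and Pik3cd and Fbxw7 on all of them (SD 0). The SD and SE of such genes may be too small, and the source of these ties was not tested. SE is limma's moderated standard error, and its 95% intervals are not adjusted for the number of genes. The members and lists were chosen with earlier results of these data known. Besides the members and Csf1r, the text could name up to 4 genes per list, those that changed most among the called ones. Foxo3, Cdkn1a, Gtse1, Aen, Mdm4, Trim17, Btrc, Marchf5 and Usp9x lie outside that rule and were named after their values were seen. Upstream sequences are the 250 bases before RefSeq starts on GRCm38.p6, leaving out the 50 after them. Figures used matplotlib 3.10.9 in Python 3.11.15. Alternatives were other variance priors, array weights, scalings, filters, probe set rules and thresholds, the replicate number as a block, and each array left out.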

Additional observations from a re-analysis of the deposited data

How the results depend on the processing

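Bcl2l11, Bcl2 and Bcl2l1 kept their direction and passed in all 19 alternatives. Mcl1 (0.14, adjusted p = 0.092) passed with an intensity trend, with genes above the 50th percentile of signal or above the receptor guide only, and at a threshold of 0.10 (0.14 in each), with cyclic loess (0.25) and with the mean of its probe sets (0.20). Bmf (0.27) did not pass with every probe set tested or at a threshold of 0.01 (0.27 in both), and without single arrays it ran from 0.21 to 0.31. The sign of Bbc3 turned with array weights (−0.0055), and without single arrays Bbc3 ran from −0.050 to 0.095. Pmaip1 was 0.048 with cyclic loess. The difference between the changes of Bmf and Bcl2 was 0.46 with the mean of probe sets, in place of 0.62. In that setting Bcl2 was at −0.20, in place of −0.35, and Bmf stayed at 0.27. The cause of the other shifts was not tested.

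The count of members called was 3 to 5 over all alternatives and that of all genes 4355 to 7410. With the replicate number as a block, 4 members and 5549 genes were called, in place of 4 and 6314, and Dynll2 did not pass (adjusted p = 0.054). Same-numbered arrays did not deviate together (correlations of 0.03, −0.05 and 0.00), so the numbers do not show a pairing. Of 48 other genes followed, 3 that were not called turned sign: with cyclic loess Btrc (0.035), Marchf5 (0.049) and Usp9x (0.073), and Usp9x also with arrays centred on medians (0.0012) and without antibody replicate 1 (0.014, with −0.098 to 0.014 over the single arrays left out). Signal over background was judged only by receptor genes, and 3 arrays per group limit what small differences can be seen.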
